A study of Homo sapiens with 12 samples.

Results

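This account concerns 10 genes of secreted inflammatory signals, the chemokines CXCL8, CXCL1, CXCL2, CXCL3 and CCL2 and the cytokines IL6, IL11, LIF, IL1A and IL1B, out of 19775 genes that have a probe set of their own on the arrays. They were chosen by name, as a family of messengers that damaged or stressed cells release, and all 10 were present. The study put BRG1, the ATPase of the SWI/SNF chromatin remodelling complex, back into SW13 cells, a human adrenal cortical carcinoma line that lacks it, and profiled transcripts on Affymetrix U133 Plus 2.0 arrays. Its question, as the design states it, was which transcripts respond to UV in cells with and without BRG1.

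The 4 groups had 3 arrays each, 12 in all. SW13+BRG1 cells (the stable line SW13+pREP7+BRG1, which carries isoform C of BRG1) were irradiated with UV at 10 J/m2 or mock-treated, and SW13+vector cells (the stable line SW13+pREP7, which carries the empty vector) were irradiated at the same dose or mock-treated. All cells were collected 6 h after the treatment. Each genotype is a single stable line, so the tests measure the spread between samples of that line, and BRG1 and any other difference between the lines cannot be told apart. In cultures of this kind a lower signal from fewer producing cells and from less RNA per cell cannot be told apart either.

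Chemokines are small secreted proteins that draw leukocytes along a gradient. The CXC chemokines CXCL8, CXCL1, CXCL2 and CXCL3 act on neutrophils through CXCR1 and CXCR2, and CCL2 acts on monocytes through CCR2. IL6, IL11 and LIF signal through receptors that share the IL6ST subunit and activate JAK kinases and STAT3, while IL1A and IL1B bind IL1R1 and activate NF-κB, a transcription factor that in turn drives many chemokine genes.

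Values are MAS signals, a linear measure of brightness that was scaled to a mean of 125 on each array. The median signal of an array was 21.1 to 25.3, and a probe set was tested only where it reached the median of its array on at least 3 of the 12 arrays. A gene was called where its adjusted p from limma was under 0.05 (Benjamini-Hochberg over 13834 tested genes) and its mean changed by more than 2-fold. The difference of UV effects needed only the adjusted p. Where all arrays of the dimmer group were below their medians, a called change is given as at least N-fold, that is, the mean of the brighter group over the array medians, and no fold is given where both groups were below them. Log2 values of comparisons that were not called are fitted estimates and no bounds. Signals of different probe sets are not comparable as amounts.

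Arrays of a group correlated at 0.894 to 0.949 and arrays of different groups at 0.763 to 0.915. Within a group the arrays numbered 3 correlated with the others at 0.894 to 0.92, against 0.929 to 0.949 between arrays 1 and 2. SMARCA4, the gene of BRG1, did not bear out the label at the RNA level. By its brightest probe set it was called lower in SW13+BRG1 cells, with a log2 fold change of -1.22 with UV (adjusted p = 0.0399, limma) and of -1.28 without it (adjusted p = 0.0356). Its 7 tested probe sets ranged from -1.22 to 2.20 with UV and from -1.28 to 0.62 without it. Taken singly, 1 of the 7 was called higher with UV and 1 was called lower without it. The position of these probe sets relative to the introduced cDNA was not known here, so directions are between the lines as labelled. The study checked BRG1 protein by Western blot, which was not analysed here. Of 8 adrenal cortex markers 7 had values. STAR and HSD3B2 were below the array median on all 12 arrays, CYP17A1 and MC2R passed the filter with signals of up to 31.9 and 60.7, and the other 3 failed it.

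The members split into 3 kinds. CXCL8, LIF and CCL2 were brighter in SW13+BRG1 cells and dim in SW13+vector cells, with or without UV. In mock-treated SW13+BRG1 cells CXCL8 was only moderately bright. It had signals of 27.9 to 45.5 on its brighter probe set and lay below the array medians on its dimmer. By their tested probe sets, IL1A lay around the array median in both lines, and IL1B reached it on 4 of 12 arrays, none of them of mock-treated SW13+vector cells. CXCL1, CXCL2, CXCL3, IL6 and IL11 stayed near or below the median everywhere. Of the 16 member probe sets 6 passed the filter, which stand for 5 members: CXCL8 with a pair of probe sets, LIF, CCL2, IL1A and IL1B. CXCL8, LIF and CCL2 reached the median on no more than 1 of the 6 SW13+vector arrays and passed through their SW13+BRG1 arrays. A gene that passes in this way is bound to differ between the lines, so the counts of calls between the lines describe these genes and are no further evidence.

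**Figure D1:**
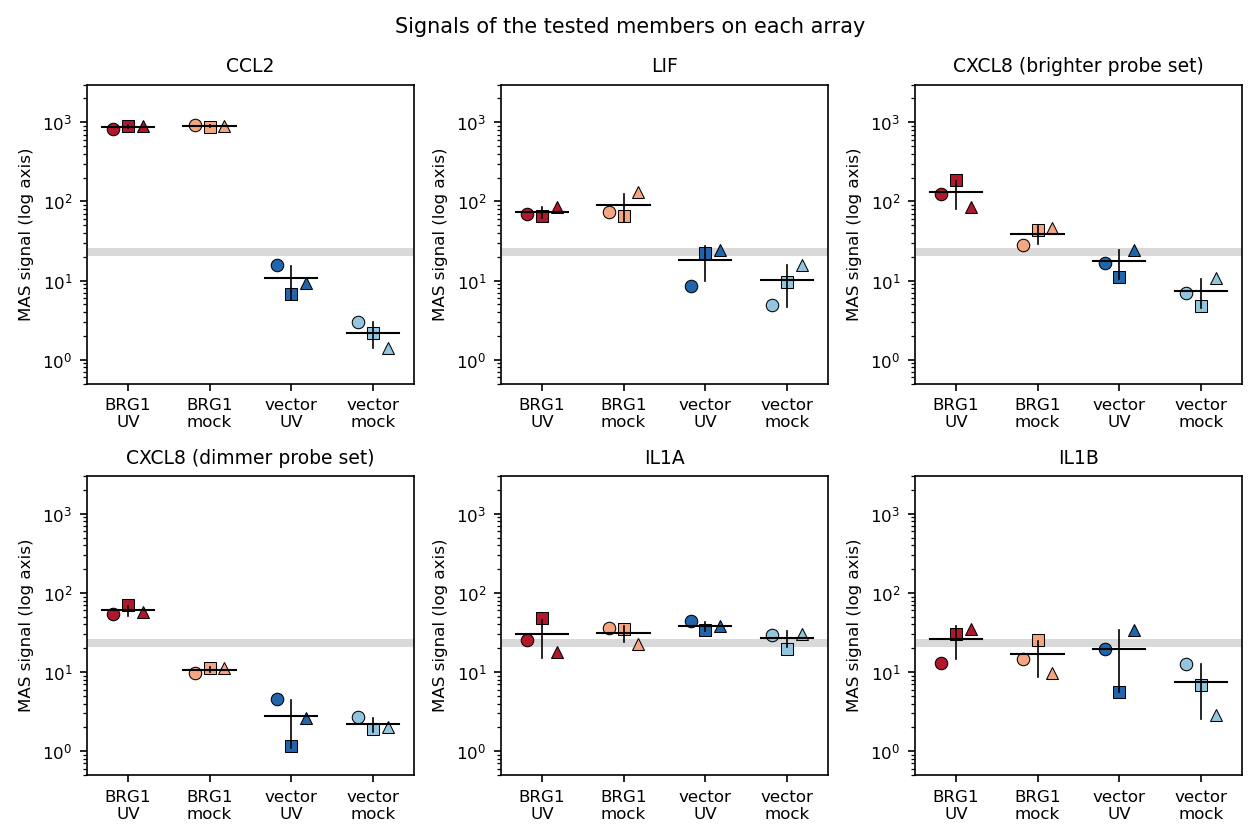
MAS signal (log axis) of the 6 tested member probe sets on each array, with circles, squares and triangles for arrays 1, 2 and 3, horizontal lines for group means, vertical lines for SD (n = 3 arrays) and a grey band for the range of array medians, 21.1 to 25.3. CCL2 lies at 829 to 932 on the 6 SW13+BRG1 arrays and at 1.42 to 15.9 on the 6 SW13+vector arrays, whereas the groups overlap for IL1B.

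CCL2, the attractant of monocytes, had the largest difference between the lines among the tested members. Its single probe set, 216598_s_at, had signals of 829, 904 and 907 on the arrays of UV-treated SW13+BRG1 cells and of 932, 876 and 892 on those of mock-treated SW13+BRG1 cells. SW13+vector cells gave 15.9, 6.73 and 9.33 with UV and 3.03, 2.16 and 1.42 without it, all below the array medians. No SW13+BRG1 array came near any SW13+vector array. With UV, CCL2 was at least 37.8-fold higher in SW13+BRG1 cells (adjusted p = 1.32e-08, limma), with group means of 880.4 ± 44.2 in SW13+BRG1 and 10.7 ± 4.74 in SW13+vector cells (SD, n = 3 arrays each). Without UV it was at least 39.2-fold higher (adjusted p = 9.82e-10), with group means of 900.0 ± 28.6 in SW13+BRG1 and 2.20 ± 0.801 in SW13+vector cells (SD, n = 3 arrays each).

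LIF, a cytokine of the IL6 family that is known for holding mouse embryonic stem cells undifferentiated, showed the same order of lines at lower signals. Its probe set, 205266_at, had signals of 70.0, 64.5 and 85.4 with UV and 74.3, 64.6 and 130.1 without it in SW13+BRG1 cells. The SW13+vector arrays gave 8.61, 22.4 and 24.3 with UV and 4.90, 9.49 and 15.8 without it, and 1 of these 6 arrays reached its median. The lines did not overlap under either treatment. LIF was higher in SW13+BRG1 cells with UV, by a log2 difference of 2.12 (standard error 0.52, adjusted p = 0.00641, limma, n = 3 arrays per group). Without UV it was at least 3.72-fold higher (adjusted p = 0.000359). Both calls were lost with the methods' t-test after Benjamini-Hochberg adjustment (adjusted p = 0.142 with UV and 0.0696 without it). LIF was already listed by the study, by this probe set and from these arrays, as regulated by BRG1, so the calls are not independent evidence.

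CXCL8, also known as interleukin 8 and the main attractant of neutrophils in humans, had a pair of tested probe sets. The brighter, 202859_x_at, had signals of 124, 184 and 84.2 in UV-treated and 27.9, 42.9 and 45.5 in mock-treated SW13+BRG1 cells. On the SW13+vector arrays its signals were 16.6, 11.0 and 24.6 with UV and 6.98, 4.71 and 10.6 without it. The order of the groups was therefore UV-treated SW13+BRG1, mock-treated SW13+BRG1, UV-treated SW13+vector and mock-treated SW13+vector, with no overlap between neighbours. Between the lines, CXCL8 was higher in SW13+BRG1 cells with UV, by a log2 difference of 2.91 (standard error 0.47, adjusted p = 0.000352, limma). Without UV it was at least 1.65-fold higher in SW13+BRG1 cells (adjusted p = 0.0016).

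The dimmer CXCL8 probe set, 211506_s_at, had signals of 53.7, 70.1 and 57.3 in UV-treated SW13+BRG1 cells and was below the median on all the other 9 arrays. Mock-treated SW13+BRG1 cells gave 9.81, 11.2 and 11.1 on them. UV-treated SW13+vector cells gave 4.50, 1.15 and 2.65, and mock-treated ones 2.72, 1.92 and 1.99. Both probe sets placed the UV-treated SW13+BRG1 arrays highest. The dimmer passed the filter through those arrays only, so it was bound to place them high. Its order of groups and its call with UV are no further evidence. On the dimmer probe set the call between the lines held with UV, at least 2.58-fold (adjusted p over probe sets = 0.00142, limma, with 7.68% of all tested probe sets called higher), and not without UV, where all 6 signals were below the medians (adjusted p over probe sets = 0.0812, with 7.69% of probe sets called higher). The letters x and s in these names mark probe sets whose probes may also match related or several transcripts.

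Across the members, 3 of 5 tested genes were called higher in SW13+BRG1 cells with UV, against 9.85% of all tested genes called higher there (16.7% in either direction). Without UV the same 3 genes, CXCL8, LIF and CCL2, were called higher, against 9.38% of all tested genes called higher (14.6% in either direction). No member gene was called lower in either comparison, where 6.84% of all tested genes were called lower with UV and 5.25% without it.

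IL1A and IL1B, both agonists of the interleukin 1 receptor, did not pass the test in any comparison. IL1A, by probe set 208200_at, had signals of 25.5, 47.9 and 18.2 in UV-treated and 35.8, 34.9 and 22.6 in mock-treated SW13+BRG1 cells. It had 43.7, 33.6 and 38.0 in UV-treated and 29.6, 19.5 and 30.5 in mock-treated SW13+vector cells. The lines overlapped under both treatments. SW13+BRG1 minus SW13+vector, the difference was -0.44 on the log2 scale with UV (95% interval -1.34 to 0.46, adjusted p = 0.467, limma) and 0.23 without it (95% interval -0.67 to 1.13, adjusted p = 0.748). A further IL1A probe set, 210118_s_at, failed the filter, and its signals of 22.3, 17.0 and 30.5 in UV-treated SW13+BRG1 cells lay above its 1.58 to 11.2 on the other 9 arrays, so the probe sets of this gene disagree.

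IL1B, by probe set 205067_at, had signals of 13.1, 30.3 and 35.0 in UV-treated and 14.5, 25.6 and 9.86 in mock-treated SW13+BRG1 cells. The SW13+vector arrays gave 19.8, 5.61 and 33.7 with UV and 12.8, 6.93 and 2.85 without it. Every pair of groups compared overlapped, and arrays of a group differed by up to several fold. The difference between SW13+BRG1 and SW13+vector cells was 0.63 on the log2 scale with UV (95% interval -1.13 to 2.40, adjusted p = 0.61, limma) and 1.29 without it (95% interval -0.48 to 3.06, adjusted p = 0.283). These intervals include changes of more than 2-fold, and all 3 mock-treated SW13+vector arrays were below their medians. The other IL1B probe set, 39402_at, failed the filter. Its signals were 5.24, 17.9 and 6.88 in UV-treated and 14.4, 22.1 and 16.5 in mock-treated SW13+BRG1 cells, against 20.9, 29.9 and 3.38 in UV-treated and 20.8, 30.4 and 4.14 in mock-treated SW13+vector cells. Its mean was thus lowest in UV-treated SW13+BRG1 cells, where that of 205067_at was highest, so the probe sets of IL1B disagree too.

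The other CXC chemokines lie in the same cluster on chromosome 4 as CXCL8 and share sequence in front of their starts. The 150 bases before the start of each of the 4 genes are printed because CXCL8 alone among them passed the filter while all 4 hold the same run of letters. They are RefSeq sequences of GRCh38.p14, written 5′ to 3′ on the strand of the gene, at chr4:73740419-73740568 (plus strand) for CXCL8, chr4:73869243-73869392 (plus strand) for CXCL1, chr4:74099196-74099345 (minus strand) for CXCL2 and chr4:74038690-74038839 (minus strand) for CXCL3. Capitals mark matches, on either strand, to GGNNTTTCC, a form of the NF-κB motif, or to TGANTCA, the AP-1 motif.
CXCL8: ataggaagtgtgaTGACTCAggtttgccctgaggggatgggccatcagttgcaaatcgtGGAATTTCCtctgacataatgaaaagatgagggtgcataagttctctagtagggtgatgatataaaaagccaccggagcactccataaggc
CXCL1: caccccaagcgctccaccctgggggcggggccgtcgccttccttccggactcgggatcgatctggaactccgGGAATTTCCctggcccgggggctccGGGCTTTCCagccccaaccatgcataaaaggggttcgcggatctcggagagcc
CXCL2: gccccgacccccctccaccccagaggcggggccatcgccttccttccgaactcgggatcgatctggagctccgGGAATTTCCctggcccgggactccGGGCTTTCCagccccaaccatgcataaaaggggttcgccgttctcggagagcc
CXCL3: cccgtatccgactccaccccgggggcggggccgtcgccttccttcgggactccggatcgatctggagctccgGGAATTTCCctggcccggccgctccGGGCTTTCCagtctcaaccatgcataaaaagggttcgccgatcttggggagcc
CXCL8 held 1 NF-κB match, at -91 to -83 from the start, and 1 AP-1 match, at -137 to -131. CXCL1, CXCL2 and CXCL3 each held a pair of NF-κB matches, the first with the same letters as that of CXCL8, and no AP-1 match in this window. Promoters of 8 of the 10 members were matched in the RefSeq table, all but those of LIF and CCL2. The NF-κB motif was in 5 of these 8 (CXCL8, CXCL1, CXCL2, CXCL3 and IL6) and in 3.46% of all 35116 windows of the same length. The AP-1 motif was in 3 of 8 (CXCL8, IL11 and IL1A) and in 4.17% of all windows, and none of the matches of either motif overlapped one of the other. A member was counted where any of its windows held a match, and some genes have several windows. The shares are over single windows, so the counts and the shares are unlike measures. A match is a description of letters only, and binding was not measured.

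CXCL1, whose protein resembles those of CXCL2 and CXCL3 closely, had signals of 16.5, 22.5 and 2.22 in UV-treated and 6.80, 17.8 and 9.91 in mock-treated SW13+BRG1 cells, against 5.24, 13.5 and 17.8 in UV-treated and 11.1, 4.997 and 2.95 in mock-treated SW13+vector cells. CXCL3 had 30.1, 20.2 and 17.5 in UV-treated and 14.5, 8.68 and 2.00 in mock-treated SW13+BRG1 cells, against 5.89, 22.9 and 2.54 in UV-treated and 3.25, 1.57 and 8.89 in mock-treated SW13+vector cells. Only 1 array, of UV-treated SW13+BRG1 cells, brought CXCL3 to its median, and none did so for CXCL1. The 3 CXCL2 probe sets ranged from 0.744 to 30.0 and did not agree on an order of the groups. The mRNAs of CXCL1, CXCL2 and CXCL3 are alike in sequence, so signal may be shared between their probe sets.

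IL6, a cytokine of the acute phase response, had signals of 2.83, 27.004 and 16.9 in UV-treated and 11.0, 9.72 and 17.8 in mock-treated SW13+BRG1 cells. The SW13+vector arrays gave 2.73, 2.99 and 1.81 with UV and 19.5, 9.61 and 13.4 without it, so that the UV-treated SW13+vector arrays were the lowest of that line. IL11, a member of the same family that acts on blood cell precursors and on fibroblasts, ranged from 2.05 to 28.5 on its brighter and from 3.10 to 19.6 on its dimmer probe set, and every pair of groups overlapped on both.

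**Figure D2:**
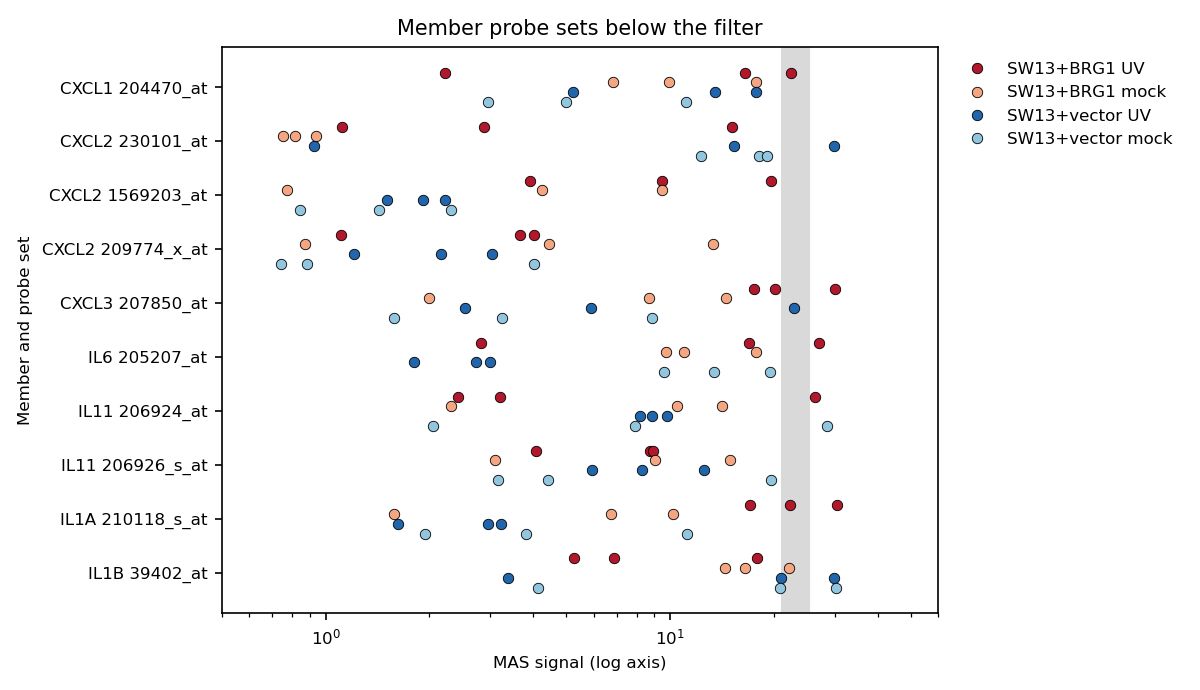
MAS signal (log axis) on each of the 12 arrays for the 10 member probe sets that failed the filter, coloured by group, with a grey band for the range of array medians. Their signals run from 0.744 to 30.5, and no probe set reaches the median on more than 2 arrays.

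At such signals an order of groups is weak evidence, so the 10 probe sets are given with the background of all 14649 single-gene probe sets that failed the filter. Between UV-treated SW13+BRG1 and SW13+vector cells, 2 of 10 lay apart, CXCL2 by 1569203_at and IL1A by 210118_s_at, both higher in SW13+BRG1 cells, against 10.9% of the background. Between the mock-treated lines 1 of 10 lay apart, CXCL2 by 230101_at, lower in SW13+BRG1 cells, against 12.2%. The 2 CXCL2 probe sets thus pointed in opposite directions between the lines. Between UV-treated and mock-treated SW13+BRG1 cells 3 of 10 lay apart, CXCL3, IL1A by 210118_s_at and CXCL2 by 230101_at, all higher with UV, against 11.8%. After UV in SW13+vector cells 1 of 10 lay apart, IL6, lower with UV, against 11.2%.

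CXCL8 rose after UV in SW13+BRG1 cells. On its brighter probe set the mean signal was 131 ± 50.3 with UV and 38.8 ± 9.51 without it (SD, n = 3 arrays each), a log2 fold change of 1.71 (standard error 0.47, adjusted p = 0.0213, limma), and all 3 UV-treated arrays were above all 3 mock-treated arrays. It was the only 1 of the 5 tested members called there, against 7.14% of all tested genes called in either direction and 0.607% called higher. The call was lost without mock-treated array 1 (log2 fold change 1.49) or 2 (1.80) and without UV-treated array 1 (1.71) or 2 (1.43), and on the scaling to hybridization controls (1.32, adjusted p = 0.0566), an alternative chosen after seeing the data. On the dimmer probe set CXCL8 had a mean of 60.4 ± 8.64 with UV and 10.7 ± 0.766 without it (SD, n = 3 arrays each), a difference that missed the threshold (adjusted p over probe sets = 0.0749, limma, with 0.561% of all tested probe sets called higher), and the mock-treated arrays were all below their medians. This probe set passed the filter through the UV-treated SW13+BRG1 arrays only, so it was bound to be higher with UV here and adds no further evidence. The study had listed both CXCL8 probe sets, from these arrays, as dependent on BRG1 for their induction by UV, so the call is not independent evidence of its direction.

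LIF and CCL2 were not called between UV-treated and mock-treated SW13+BRG1 cells. LIF had means of 73.3 ± 10.8 with UV and 89.7 ± 35.4 without it (SD, n = 3 arrays each), a log2 fold change of -0.23 with a 95% interval of -1.35 to 0.88 (adjusted p = 0.826, limma). For CCL2 the log2 fold change was -0.03 with a 95% interval of -0.76 to 0.69 (adjusted p = 0.964), so the interval of CCL2 leaves out a 2-fold change in either direction, and that of LIF includes a 2-fold fall. IL1A had -0.12 (95% interval -1.02 to 0.78, adjusted p = 0.897) and IL1B 0.64 (95% interval -1.12 to 2.41, adjusted p = 0.666) on the log2 scale in the same comparison.

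Among the members CCL2 was, in SW13+vector cells, the 1 of 5 tested members called after UV (adjusted p = 0.00103, limma), against 4.8% of all tested genes called in either direction and 0.658% called higher. Its signals of 15.9, 6.73 and 9.33 with UV and 3.03, 2.16 and 1.42 without it did not overlap, but all 6 lay below the array medians, so no fold is given. The call was lost on log2 of the signal plus 16, with a floor at the 40th percentile, with the compared arrays only and with the methods' t-test after adjustment. CXCL8 did not pass there, with signals of 16.6, 11.0 and 24.6 with UV and 6.98, 4.71 and 10.6 without it, and its log2 fold change was 1.23 (standard error 0.47, adjusted p = 0.104). On the dimmer probe set these groups overlapped below the medians (adjusted p over probe sets = 0.953, with 0.665% of probe sets called higher). LIF had 0.89 (standard error 0.52, adjusted p = 0.298), IL1A 0.55 (standard error 0.42, adjusted p = 0.445) and IL1B 1.30 (standard error 0.82, adjusted p = 0.346) on the log2 scale. The mock-treated arrays of CXCL8, LIF and IL1B were all below their medians there, so these log2 values are estimates only.

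**Figure D3:**
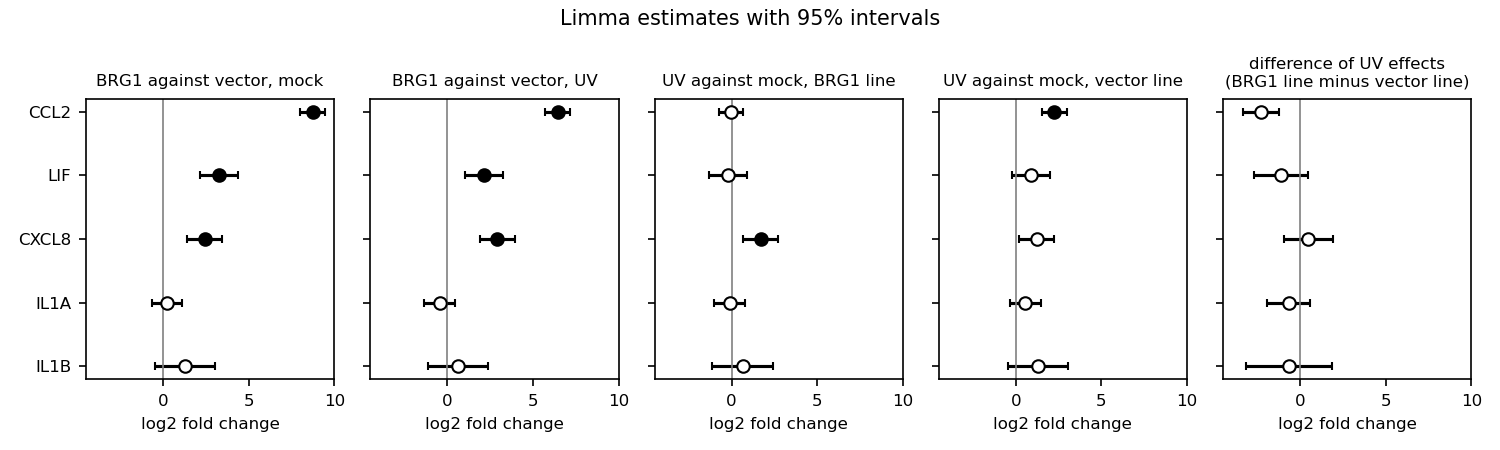
Log2 fold changes of the 5 tested members (points, filled where called) with 95% intervals in the 5 comparisons, from limma on 3 arrays per group. CXCL8 is filled in 3 of the 4 comparisons of groups and IL1A and IL1B in none, and points that involve the SW13+vector line for CCL2, or its mock-treated arrays for CXCL8, LIF and IL1B, rest on signals below the array medians.

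Whether UV changed a member more in one line than in the other was tested as the difference of the UV effects, SW13+BRG1 minus SW13+vector. None of the 5 tested members was called, against 0.094% of all tested genes. With the replicate number as a block, CCL2 was called (adjusted p = 0.0349, limma). CXCL8 had a difference of 0.48 on the log2 scale on its brighter probe set (95% interval -0.96 to 1.92, adjusted p = 0.999, limma) and of 2.36 on its dimmer (95% interval -0.27 to 4.99, adjusted p over probe sets = 1, with 0.049% of probe sets called). The estimate on the dimmer probe set involves the group through which alone it passed the filter. The call after UV in SW13+BRG1 cells and its absence in SW13+vector cells therefore do not show that the response of CXCL8 differed between the lines. Unadjusted p was under 0.05 only for CCL2, with a difference of -2.28 (standard error 0.48, unadjusted p = 0.000345, adjusted p = 0.173), which rests on its signals below the array medians in SW13+vector cells, as the estimates of CXCL8, LIF and IL1B do on those of the mock-treated SW13+vector arrays. LIF had -1.12 (95% interval -2.70 to 0.45), IL1A -0.67 (95% interval -1.94 to 0.60) and IL1B -0.66 (95% interval -3.15 to 1.84), each with adjusted p = 0.999.

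The genes beside the members on the chromosomes were looked up in the gene order of GRCh38.p14. CCL7, another attractant of monocytes, is the next gene after CCL2 and alone passed the filter among the neighbouring chemokine genes with a probe set of their own. Its signals were 104, 113 and 96.9 in UV-treated and 97.0, 90.6 and 132.9 in mock-treated SW13+BRG1 cells. The SW13+vector arrays gave 7.00, 18.1 and 20.7 with UV and 5.24, 2.62 and 0.929 without it, so the lines did not overlap under either treatment. CCL7 was at least 4.49-fold higher in SW13+BRG1 cells with UV (adjusted p = 0.00219, limma) and at least 4.59-fold higher without it (adjusted p = 1.61e-05). The further CCL genes there, CCL11, CCL8 and CCL1, stayed at or below 26.4 on all arrays and failed the filter. CCL13, between CCL8 and CCL1, had no probe set of its own and could not be read. Around CXCL8 the chemokine genes CXCL6, PF4V1, PF4, PPBP and CXCL5 stayed at or below 22.5 on all arrays and failed it too, as did OSM beside LIF, with no signal above 34.4.

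Of 40 other chemokine and cytokine genes 37 had a probe set of their own and 12 passed the filter. Without UV, SW13+BRG1 cells were higher in 3 of the 12 and lower in 1 (9.38% and 5.25% over all tested genes), with a median log2 fold change of 0.40 over the 12 and of 0.00 over all tested genes. Beside CCL7 these were CCL26, which draws eosinophils (at least 1.31-fold, adjusted p = 0.00779, limma), and IL15, a growth factor of T and natural killer cells (at least 2.63-fold, adjusted p = 0.00406). With UV 2 were higher, CCL7 and IL15 (at least 1.52-fold, adjusted p = 0.00871, not called on its other tested probe set), and 1 was lower (9.85% and 6.84% over all tested genes). The gene that was lower in both was CXCL13, which draws B cells, with signals of 14.4, 1.74 and 8.71 in UV-treated and 4.80, 4.69 and 6.64 in mock-treated SW13+BRG1 cells, against 231, 253 and 152 in UV-treated and 184, 177 and 126 in mock-treated SW13+vector cells. It was at least 8.97-fold lower with UV (adjusted p = 3.2e-05) and at least 6.70-fold lower without it (adjusted p = 4.95e-05), the direction opposite to that of CXCL8 and CCL2. CCL7, CCL26 and IL15 were below the array medians on all SW13+vector arrays, and CXCL13 on all SW13+BRG1 arrays. They passed the filter through the line where they were higher and were bound to differ between the lines. The counts of calls here describe these genes and are no further evidence, and the median of 0.40 includes them. IL15 was also listed by the study, by another probe set, as regulated by BRG1.

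After UV, 1 of these 12 genes was called in each line (7.14% of all tested genes in SW13+BRG1 and 4.8% in SW13+vector cells) and none in the difference of UV effects. In SW13+BRG1 cells IL23A, a subunit of interleukin 23, rose, with signals of 16.7, 38.6 and 21.3 with UV and 11.2, 3.77 and 3.81 without it (adjusted p over genes = 0.0417, limma). All 3 mock-treated arrays were below their medians, and against those medians the rise is bounded only at 1.001-fold. Leaving out any 1 of 9 of the 12 arrays ended that call. In SW13+vector cells CCL7 was called (adjusted p = 0.0135), with all 6 signals below the array medians and hence no fold, and the call was lost without UV-treated array 2 (adjusted p = 0.0503) or 3 (adjusted p = 0.0545). CCL2 and its neighbour CCL7 were thus both called in this comparison from signals below the medians.

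Several receptors were higher in SW13+BRG1 cells. Of 20 genes for receptors and antagonists 13 passed the filter, and in SW13+BRG1 cells 4 were higher and none lower under either treatment (over all tested genes 9.85% higher and 6.84% lower with UV, 9.38% and 5.25% without it). The median log2 fold change over the 13 was 0.63 with UV (-0.02 over all tested genes) and 1.19 without it (0.00 over all tested genes). TNFRSF1A, the main receptor of TNF, had signals of 195, 206 and 232 in UV-treated and 436, 480.2 and 547 in mock-treated SW13+BRG1 cells, against 51.7, 18.4 and 47.2 in UV-treated and 74.3, 87.3 and 89.9 in mock-treated SW13+vector cells. Its log2 fold change between the lines was 2.56 with UV (standard error 0.32, adjusted p = 3.85e-05, limma) and 2.54 without it (adjusted p = 4.64e-05).

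IL6ST, the subunit through which IL6, IL11 and LIF signal, had signals of 1070.0, 1171 and 912 in UV-treated and 1203, 1136 and 892 in mock-treated SW13+BRG1 cells, against 422, 465 and 373 in UV-treated and 464, 453 and 441 in mock-treated SW13+vector cells. The lines did not overlap, with log2 fold changes of 1.32 with UV (standard error 0.14, adjusted p = 1.23e-05, limma) and 1.24 without it (adjusted p = 2.38e-05). Of the 4 other tested probe sets of IL6ST 1 was called without UV and none with it, and on the mean over its probe sets the call with UV was lost (log2 fold change 0.72, adjusted p = 0.154). OSMR, the receptor subunit of oncostatin M that pairs with IL6ST, was higher by 1.17 with UV (standard error 0.13, adjusted p = 1.41e-05) and by 1.31 without it (adjusted p = 5.3e-06).

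IL1R1, the receptor of IL1A and IL1B, had signals of 29.1, 46.6 and 11.3 in UV-treated and 41.2, 27.8 and 33.6 in mock-treated SW13+BRG1 cells, and of 1.40 to 11.6 on the 6 SW13+vector arrays. It was called with UV (at least 1.07-fold, adjusted p = 0.0122, limma) and missed the threshold without it (adjusted p = 0.0519), and the call with UV was lost without UV-treated SW13+BRG1 array 2 (adjusted p = 0.0676). That call was also lost with a floor at the 40th percentile (adjusted p = 0.129) and with the compared arrays only (adjusted p = 0.0533). With no filter another IL1R1 probe set stood for the gene and gave -0.0735 (adjusted p = 0.953), so its probe sets disagree. IL1R1 passed the filter through its SW13+BRG1 arrays only, so its call is no further evidence. CXCR4, the receptor of CXCL12, was called without UV (log2 fold change 2.34, standard error 0.78, adjusted p = 0.0379) and not with it (0.86, adjusted p = 0.445), a call that leaving out any 1 of 7 arrays ended (log2 fold change 1.31 to 3.12 over all 12). LIFR, IL6R and IL11RA, the specific receptors of LIF, IL6 and IL11, were tested and did not pass between the lines, with log2 fold changes of -0.13, 1.29 and 0.51 with UV and of 0.35, 1.19 and 0.10 without it.

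TNFRSF1A fell after UV in both lines. On the log2 scale it fell by 1.21 in SW13+BRG1 cells (standard error 0.32, adjusted p = 0.016, limma; without UV-treated array 1, 0.0521) and by 1.23 in SW13+vector cells (adjusted p = 0.0201). The call in SW13+vector cells was lost without mock-treated array 2 (adjusted p = 0.0616) or UV-treated array 2 (log2 fold change -0.76). IL1RL1, the receptor of interleukin 33, rose in SW13+BRG1 cells, with signals of 39.2, 42.9 and 52.5 with UV and 5.15, 3.68 and 34.3 without it (log2 fold change 2.36, standard error 0.68, adjusted p = 0.0265), a call that leaving out any 1 of 5 arrays ended (log2 fold change 1.74 to 3.35 over all 12) and that its other tested probe set did not share. These were the only called receptor genes after UV, and none was called in the difference of UV effects.

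Of 35 genes for signalling, processing and feedback 28 passed the filter. In SW13+BRG1 cells 5 were higher and 1 lower with UV (9.85% and 6.84% over all tested genes), and 3 higher and 2 lower without it (9.38% and 5.25%). In either direction these were 6 of 28 with UV and 5 of 28 without it, near the shares over all tested genes (16.7% and 14.6%). The medians were 0.22 with UV and 0.11 without it on the log2 scale. JAK1, a kinase bound to IL6ST, was higher on the log2 scale by 1.50 with UV (standard error 0.15, adjusted p = 7.48e-06, limma) and by 1.36 without it (adjusted p = 1.9e-05), and JAK2 by 1.75 with UV (standard error 0.44, adjusted p = 0.00804). STAT3, the transcription factor these kinases activate, was higher by 1.29 with UV (standard error 0.13, adjusted p = 5.03e-06) and by 1.15 without it (adjusted p = 1.44e-05). The 2 other tested probe sets of JAK2 were not called with UV, and on the mean over its probe sets STAT3 with UV was under 2-fold (log2 fold change 0.88, adjusted p = 0.00217). The kinase TYK2, the phosphatase PTPN11 and the inhibitors SOCS3 and PIAS3 were tested and not called between the lines.

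A pair of related proteins that bind AU-rich mRNAs, among them cytokine mRNAs, and promote their decay went in opposite directions. ZFP36L1 had signals of 2142, 1891 and 1055 in UV-treated and 2812, 2884 and 2302 in mock-treated SW13+BRG1 cells, against 461, 524 and 406 in UV-treated and 569, 470.5 and 464 in mock-treated SW13+vector cells. It was higher by 1.82 with UV (standard error 0.22, adjusted p = 3.09e-05, limma) and by 2.41 without it (adjusted p = 2.56e-06). ZFP36L2 fell by 1.19 in log2 signal with UV (standard error 0.19, adjusted p = 0.000363) and by 1.30 without it (adjusted p = 0.000215) in SW13+BRG1 relative to SW13+vector cells. On a further probe set each gene was not called under 1 of the treatments or both, and the ZFP36L2 call with UV was lost without UV-treated SW13+BRG1 array 3 (log2 fold change -0.94).

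**Figure D4:**
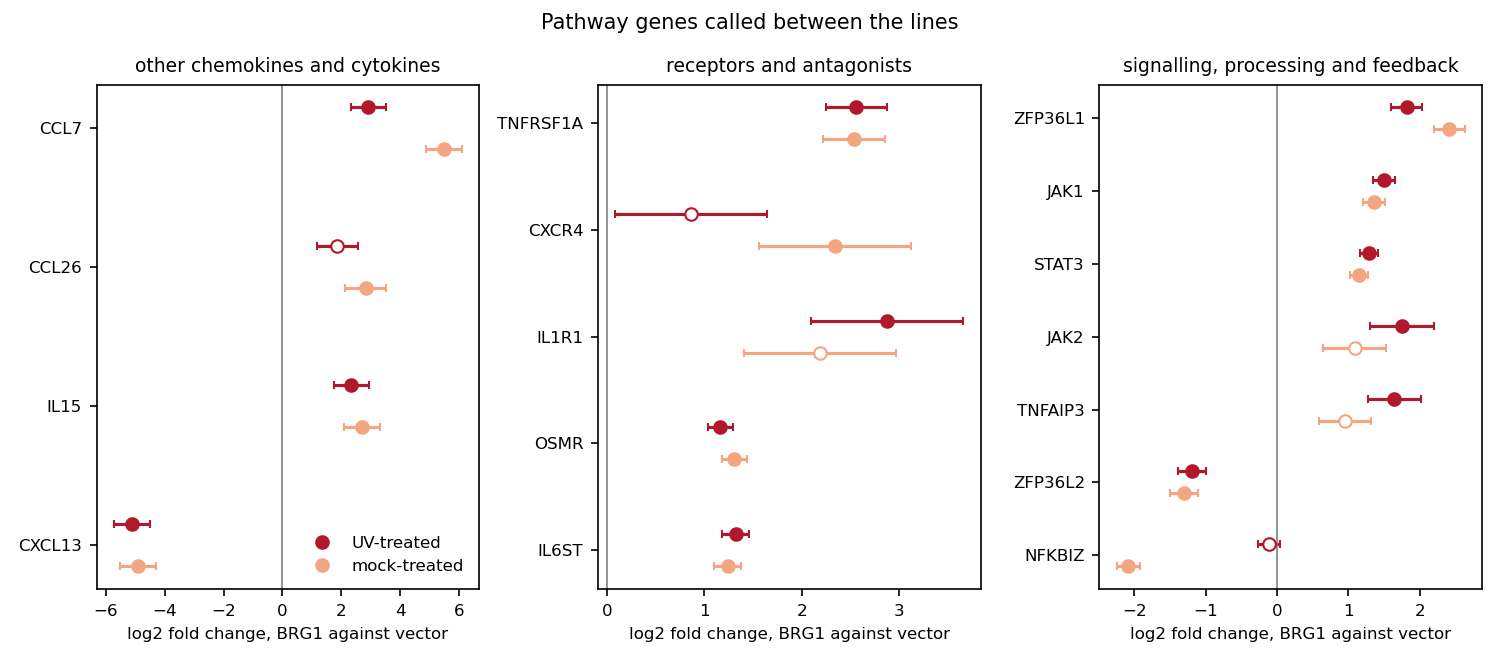
Log2 fold changes of SW13+BRG1 against SW13+vector cells (points, filled where called, with standard errors from limma, n = 3 arrays per group) for the pathway genes called in at least 1 of the treatments. CXCL13 is the only called chemokine or cytokine with a fold change under 0, NFKBIZ lies at -0.11 with UV and at -2.08 without it, and values for CCL7, CCL26, IL15, IL1R1 and CXCL13 include signals below the array medians.

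NFKBIZ, a nuclear cofactor of NF-κB that in mouse macrophages is needed for the induction of Il6, was the only pathway gene called in the difference of UV effects. Its signals were 284, 284 and 218 in UV-treated and 98.9, 100.4 and 84.3 in mock-treated SW13+BRG1 cells, against 306, 287 and 253 in UV-treated and 415, 410.3 and 375 in mock-treated SW13+vector cells. The mock-treated SW13+BRG1 arrays stood apart as the lowest, while the lines overlapped after UV. The log2 fold change with UV was 1.46 in SW13+BRG1 cells (standard error 0.16, adjusted p = 6.74e-05, limma) and -0.51 in SW13+vector cells (adjusted p = 0.0503), and the difference was 1.97 (standard error 0.23, adjusted p = 0.00278). On its other tested probe set the difference was 1.54 and was not called (adjusted p over probe sets = 0.918). The study had listed NFKBIZ, by the brighter probe set and from these arrays, as dependent on BRG1 for its induction by UV. The call is thus not independent evidence of its direction.

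TNFAIP3, the enzyme A20 that ends NF-κB signalling, was higher in SW13+BRG1 cells with UV, by a log2 difference of 1.64 (standard error 0.37, adjusted p = 0.00378, limma). After UV it fell by 1.20 in SW13+vector cells (adjusted p = 0.0457), a call that leaving out any 1 of 10 arrays ended (log2 fold change -1.56 to -0.86 over all 12). TRAF6, an adaptor of the interleukin 1 receptor, fell after UV by 2.29 in SW13+BRG1 cells (standard error 0.59, adjusted p = 0.015; without mock-treated array 1, 0.0574), and SOCS1, a feedback inhibitor of JAK kinases, rose by 1.24 in SW13+vector cells (standard error 0.36, adjusted p = 0.0366), which leaving out any 1 of 6 arrays ended (log2 fold change 1.00 to 1.40 over all 12). The NF-κB subunit RELA and the inhibitor NFKBIA, itself a target of NF-κB, were not called in any comparison. After UV in SW13+BRG1 cells the median log2 fold change was 0.24 over the 12 other chemokines and cytokines, -0.03 over the 5 tested members, -0.21 over the receptors and -0.08 over the signalling genes, against 0.03 over all tested genes. In SW13+vector cells it was 0.37 over the other chemokines and cytokines, 1.23 over the tested members, -0.07 over the receptors and -0.11 over the signalling genes, against 0.03 over all tested genes. The 1.23 is a median of only 5 values. For CXCL8, LIF, CCL2 and IL1B all mock-treated SW13+vector arrays were below their medians, so it is an estimate only.

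Leukocytes make many of these cytokines in tissue, and their markers were read between the lines. Of 8 leukocyte and macrophage markers 7 had values and 4 passed the filter, and their summed signal ranged from 89.5 to 103 in UV-treated and from 111 to 125 in mock-treated SW13+BRG1 cells, against 199 to 268 in UV-treated and 199.5 to 262 in mock-treated SW13+vector cells. PTPRC, the pan-leukocyte antigen CD45, was at least 4.93-fold lower in SW13+BRG1 cells with UV (adjusted p = 0.000245, limma) and at least 4.92-fold lower without it (adjusted p = 0.000834). It carried most of the difference in the sum. PTPRC was below the array medians on all SW13+BRG1 arrays and passed the filter through its SW13+vector arrays only. It was thus bound to differ between the lines, and its calls are no further evidence. CD79A, a part of the B cell receptor, was at least 1.88-fold lower with UV (adjusted p = 0.00806) and not called without it (adjusted p = 0.852). The other tested markers were called under neither treatment, and CSF1R, the receptor of a macrophage growth factor, had 17.1, 38.6 and 21.4 in mock-treated SW13+BRG1 and 4.62, 17.95 and 14.5 in mock-treated SW13+vector cells. LYZ, a marker of macrophages, was below the array median on all 12 arrays, and the part of these markers in the results was not tested.

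The profiles most like those of the tested members were sought among 6522 genes whose 4 group means spanned at least 1 on the log2 scale, by the root mean square difference of the centred group means over the 4 groups. Nearest to CXCL8 were NR4A2, a nuclear receptor of the immediate early kind, at 0.204 and TCIRG1, a subunit of the vacuolar proton pump, at 0.209. NREP at 0.0598 and C3AR1, the receptor of a complement fragment, at 0.0763 were nearest to LIF, and SPATS2L at 0.300 and CASP8, the caspase that death receptors activate, at 0.466 were nearest to CCL2. The nearest to IL1B were ARSG at 0.0512 and MAPT-AS1 at 0.063, and those to IL1A were CNMD at 0.183 and CRYBG2 at 0.199, where IL1A itself spanned 0.55. These are descriptions over 4 means of the same 12 arrays. Those for CCL2 rest on means of signals below the medians, since the SW13+vector means were 10.7 with UV and 2.20 without it for CCL2, 19.3 and 6.55 for SPATS2L and 6.77 and 1.06 for CASP8. TCIRG1 and C3AR1 were likewise below the medians on all SW13+vector arrays. On the mock-treated SW13+vector arrays so were CXCL8, LIF, IL1B, NR4A2 and ARSG, and CNMD reached the median on 3 of 12 arrays.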

How the data were processed

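RNA of 12 samples was hybridized by the authors to Affymetrix U133 Plus 2.0 arrays, summarized with MAS under default settings and scaled to a mean target signal of 125. The authors deposited 1 signal intensity (linear scale) for each of 54675 probe sets per array. The sources used here name no version of MAS, and detection calls were not used. The mean without the highest and lowest 2% was 125 on each array, and no further normalization was applied.

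Of 54613 probe sets that are not controls, 32622 had a signal at or above the array median on at least 3 of 12 arrays. limma 3.58.1 under R 4.3.3 was run on their log2 signals, with 4 group means and eBayes with a trend on mean signal. P values were adjusted by Benjamini-Hochberg over 13834 genes, each by its brightest single-gene probe set, or over probe sets where stated. The script was tested on simulated data. The array annotation gives 1 gene for 41097 probe sets, several for 1801 and none for 11777, and 41043 symbols were updated by gene ID. The authors' own test was a Welch test with p under 0.05 and a 2-fold change. The number of arrays limits the precision.

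All 10 members were named, with up to 4 called genes of a list per direction and comparison, SMARCA4, and the 2 genes nearest in profile. The members and gene lists were chosen with earlier results of these data known. The alternatives were other filters, scalings, floors, fits and tests, the replicate number as a block, and leaving out each array.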

Additional observations from a re-analysis of the deposited data

Results flagged for a closer look

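NFKBIZ rose after UV in the SW13+BRG1 line and was not called in the SW13+vector line (adjusted p = 0.0503), and the difference itself passed the test. Its log2 fold change with UV was 1.46 in the SW13+BRG1 line and -0.51 in the SW13+vector line, with no overlap between UV-treated and mock-treated arrays in either line, and opposite signs without overlap were found for 0.34% of all 13834 tested genes. The difference was 1.97 (adjusted p = 0.00278, limma, n = 3 arrays per group). The call of the difference was lost on the mean over the probe sets of the gene (1.76, adjusted p = 0.256). NFKBIZ was already in the study's list of UV-induced transcripts that depend on BRG1, drawn from these arrays.

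SOCS1 was not called between the lines under either treatment, but its arrays lay apart in opposite ways with and without UV, which was so for 48 of 13834 tested genes (0.347%). All 3 UV-treated SW13+BRG1 arrays were below all 3 UV-treated SW13+vector arrays (log2 fold change -0.97), and all 3 mock-treated SW13+BRG1 arrays were above all 3 mock-treated SW13+vector arrays (0.68). Without UV the margin was narrow, with 33.6 on the lowest SW13+BRG1 array against 32.9 on the highest SW13+vector array. The difference of UV effects was -1.66 and did not pass (adjusted p = 0.587, limma).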

How the results depend on the processing

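Of 650 values of the tested members under the alternatives, 629 kept their direction and their side of the threshold, 13 lost the call, 1 gained a call and 7, none of them called, changed sign. For UV against mock in SW13+BRG1 cells LIF was at 0.0323 with quantile normalization (main value -0.23) and CCL2 at 0.0171 with a common median (-0.03). Leaving out 1 array gave -0.434 to 0.0713 for LIF, -0.055 to 0.00983 for CCL2 and -0.501 to 0.198 for IL1A (-0.12) there, and -0.101 to 1.19 for IL1B between the UV-treated lines (0.63). After UV in SW13+vector cells the member count was 0, against 1 (CCL2), on log2 of the signal plus 16 (log2 fold change 0.54), with a floor at the 40th percentile (0.02), with the compared arrays only (adjusted p = 0.194) and with the methods' t-test after Benjamini-Hochberg. After UV in SW13+BRG1 cells it was 0, against 1 (CXCL8), with that test and with the scaling to 18 hybridization controls. Between the mock-treated lines it was 1 (CCL2), against 3, with that test, and between the UV-treated lines 2 (without LIF). The replicate block moved the difference of UV effects to 1 call (CCL2, adjusted p = 0.0349), against 0. Same-numbered arrays of different groups had deviations that correlated at 0.075 to 0.141 for number 1, 0.0152 to 0.102 for number 2 and 0.179 to 0.293 for number 3 (-0.223 to 0.137 for different numbers), and 4 of 12 arrays correlated best with their own number in every other group. All same-number correlations were thus positive, and those of number 3 lay above all those of different numbers. The labels do not say whether the numbers mark a shared batch. The main fit treated the arrays as unpaired, and these correlations do not show that they were. Leaving out 1 array gave counts of 3 to 3 between the lines with UV and without it, 0 to 1 after UV in SW13+BRG1 cells, 1 to 1 in SW13+vector cells and 0 to 0 for the difference. With no filter CXCL2 was called lower in mock-treated SW13+BRG1 cells (log2 fold change -4.29, adjusted p = 0.0207, signals below the array medians) and no other dim member in any comparison.

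Of 965 values of the 36 pathway calls, 847 were kept and 117 lost, and IL1R1 changed sign with no filter (-0.0735), where another probe set stood for the gene.

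Counts over all genes, or their split by direction, moved as follows. The methods' t-test after Benjamini-Hochberg called 948 genes between the lines with UV, against 2309, and 671 without it, against 2023. After UV it called 158, against 988, in SW13+BRG1 and 31, against 664, in SW13+vector cells. With no fold threshold these counts were 4403, 3941, 2722 and 1933. On hybridization controls, where the median UV effect was -0.449 in SW13+BRG1 and -0.271 in SW13+vector cells (-0.0572 and -0.0102 in the main fit), 34 of 1931 calls after UV in SW13+BRG1 cells were higher, against 84 of 988, 44 of 1118 in SW13+vector cells, against 91 of 664, and 1155 of 2423 between the UV-treated lines, against 1363 of 2309. After UV, the 84 genes called higher in SW13+BRG1 cells became 141 of 760 calls with quantile normalization, 51 on the signal plus 16 and 136 without the arrays numbered 3. The 91 called higher in SW13+vector cells became 59 on the signal plus 16, 44 with the compared arrays only, 144 with the block and 143 without the arrays numbered 3. The difference was called for 13 genes, and for 81 with the block, 151 without the arrays numbered 3, 21 with the floor, 9 on hybridization controls (1 higher, against 4), 6 on the mean over probe sets, 4 without a variance trend and 4 to 18 without 1 array. The scaling to hybridization controls and the fit without the arrays numbered 3 were chosen after seeing the data. The causes were not tested. Dim signals limit all members, and CXCL8, LIF and CCL2 chiefly in SW13+vector cells.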
